A study of Mus musculus with 4 samples.

Results

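AR7 is a small molecule that binds the retinoic acid receptor RARα and was made to activate chaperone-mediated autophagy (CMA). Its effect on gene expression was described here by comparing 1 array of NIH-3T3 cells kept with 20 µM AR7 for 24 h with 1 array of NIH-3T3 cells to which nothing was added. NIH-3T3 is a long-established line of mouse embryonic fibroblasts. These are 2 of the 4 arrays of the study, whose other arrays held cells given 20 µM of the later compounds CA39 or CA77 for 24 h. A probe was kept when the scanner software called it well above background on both arrays and marked no outlier, which left 28862 of 55681 probes and 21727 of 36924 genes, 13535 of them with a gene symbol. All values are log2 spot intensities, quantile normalized over the 4 arrays, and every difference is AR7 minus untreated.

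There was 1 culture a side, so no test was possible and no p-value is given. The only error that could be measured was that between spots. Among 230 kept probes printed 10 times over the array, the SD of a difference between the arrays had a median of 0.17 (log2), which is 1.13-fold, and this is called the tolerance. It covers spot error only and not the spread between cultures. The compound was dissolved in DMSO and the untreated label names no vehicle, so compound and vehicle cannot be told apart. All 4 arrays shared a slide, with the untreated array in its row 1 and those of treated cells in its row 2, and an effect of slide position can likewise not be told apart from that of AR7. A lower level can stand for fewer expressing cells or for less RNA in each, which bulk RNA cannot tell apart. Of 14 fibroblast markers 13 were detected on both arrays and Pdgfrb on neither, with a summed net intensity of 1252926.5 on the untreated array and 1069159.75 on the AR7 array. Of these 13 markers 12 lay below 0, where 11408 of all 21727 genes did, and their median was -0.22. Past the tolerance on the lower side were 10 of them, against 4044 of all 21727 genes. At least 1.5-fold lower were 2, Col1a1 and Col3a1, which the collagen list also holds, against 1.43% of all genes. Of 11 epithelial markers 7 and 6 were detected, with a sum of 1560.5 and 1683, and the defining genes Cdh1, Epcam and Krt19 were not detected. Of the 6 measured on both arrays 5 lay above 0, with a median of 0.19 and 0 past 1.5-fold. Past the tolerance 4 were higher and 0 lower, where 3511 and 4044 of all 21727 genes were. Sums of 5150.5 and 5415.5 were read for 8 endothelial markers, with Tie1 not detected on either array, and 3 of the 5 measured on both arrays were past 1.5-fold higher, Emcn (1.12), Vwf (0.70) and Cdh5 (0.62), where 2.94% of all genes were. Of the 3 of these markers printed in the grid rows of the array over 160, 1 was past 1.5-fold and their median was -0.07. Of 11 blood cell markers 9 and 7 were detected, with sums of 15599.5 and 17518.5, and of 12 adipocyte and muscle markers 10 and 6, with sums of 7225.5 and 6475.25. Of 7 blood cell markers measured on both arrays the hemoglobin gene Hba-a1 (0.67) was past 1.5-fold, with 3 above and 4 below 0 and a median of -0.02. Of 6 adipocyte and muscle markers it was Fabp4 (-0.75), with 3 above and 3 below 0 and a median of 0.04. Among all genes 2.94% were past 1.5-fold higher and 1.43% lower. The part of these markers in the results was not tested.

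CMA brings single cytosolic proteins that carry a KFERQ-like motif, through the chaperone HSC70 and the receptor LAMP2A, into lysosomes, and RARα signaling restrains it. A separate defence against reactive compounds runs through the transcription factor NRF2, which KEAP1 holds at a low level until electrophiles or oxidants modify KEAP1. NRF2 then pairs with small MAF proteins on antioxidant response elements near genes for glutathione transferases, glutathione synthesis and NADPH supply. Sterol synthesis is set by SREBP2, which cells release from the endoplasmic reticulum when sterols are scarce.

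Several enzymes that conjugate or oxidize reactive compounds were far higher with AR7. The 5 alpha-class glutathione transferases that were measured were 12.7-fold (Gsta3) to 232-fold (Gm10639) higher, the aldehyde dehydrogenase Aldh3a1 was 16-fold higher and the quinone reductase Nqo1 was 4.77-fold higher. All 24 measured genes of sterol synthesis lay below 0, with a median of -0.485, and 7 were at least 1.5-fold lower, as were 3 of 16 collagens and 7 of 24 matrix proteins, against 1.43% of all genes. Hp, the gene for the acute-phase protein haptoglobin, which binds hemoglobin, was 6.04-fold lower. Genes of the CMA network and of the retinoid response were within 1.5-fold of the untreated level by their brightest kept probes. The CMA network gene Gfap had a further probe, detected with AR7 only, that was at least 3.67-fold higher. That probe was printed in grid row 151, in the part of the array that held 316 of the 379 AR7-only probes past 2-fold. The brightest kept Gfap probe lay within the tolerance, and another was not detected on any array.

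**Figure D1:**
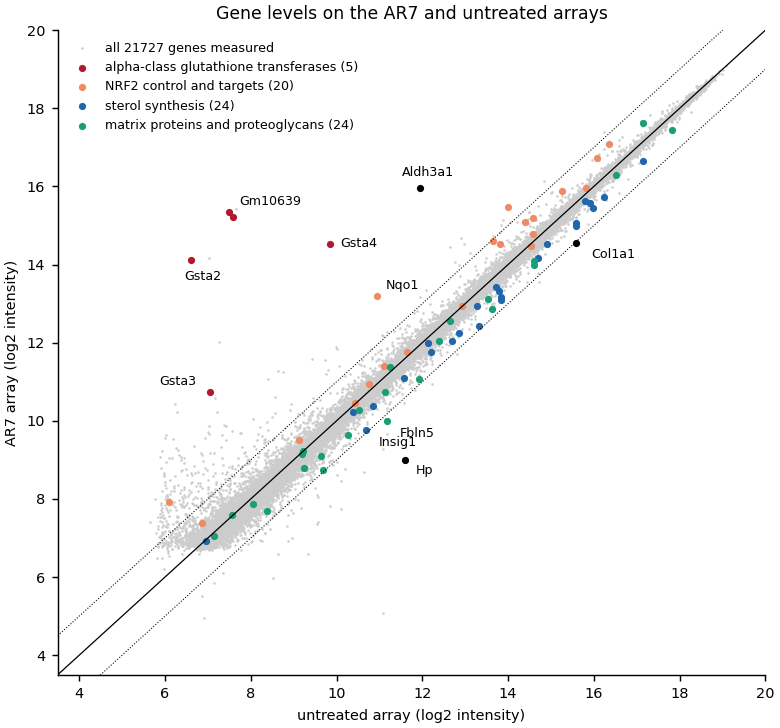
Level of each of the 21727 measured genes on the untreated array (x axis, log2 intensity) and the AR7 array (y axis, log2 intensity), 1 point a gene, with 4 gene lists in color and 3 further genes in black. The solid line marks equal levels and the dotted lines a 2-fold difference. The 5 alpha-class glutathione transferases lie 3.67 to 7.86 above the line and the sterol synthesis genes lie just below it.

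Over all genes, 288 (1.33%) were at least 2-fold higher with AR7 and 52 (0.239%) at least 2-fold lower, and the median difference was -0.01 with an SD of 0.34 across genes. At 1.5-fold, 638 genes (2.94%) were higher and 310 (1.43%) lower. These shares depended on where a probe was printed. In grid rows 1 to 32 of the array 8.35% of probes were at least 1.5-fold higher and 0.86% lower, while in rows 353 to 384 these shares were 0.635% and 3.6%. Some of the higher probes in rows up to 160 formed clusters of neighboring spots, which held 130 kept probes. For this reason values in rows over 160 are given separately. There, 72 of 13874 genes (0.519%) were at least 2-fold higher and 43 (0.31%) lower, against 263 (2.52%) and 15 (0.144%) of 10422 genes in rows up to 160. At 1.5-fold the shares in rows over 160 were 1.59% higher and 1.85% lower, and in rows up to 160 they were 4.88% and 0.902%. Dim genes were called more often. With the genes ordered by level into 4 equal groups, 3.65% of the dimmest group and 0.276% of the brightest were at least 2-fold higher. At least 2-fold lower were 0.442% and 0.0368%. The detection filter was uneven too, with 9862 probes detected on the untreated array alone and 489 on the AR7 array alone, all outside these counts. A gene near the detection limit was thus kept more readily when high with AR7. Without the filter 70.3% of the 2-fold calls were higher, against 84.7% with it.

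**Figure D2:**
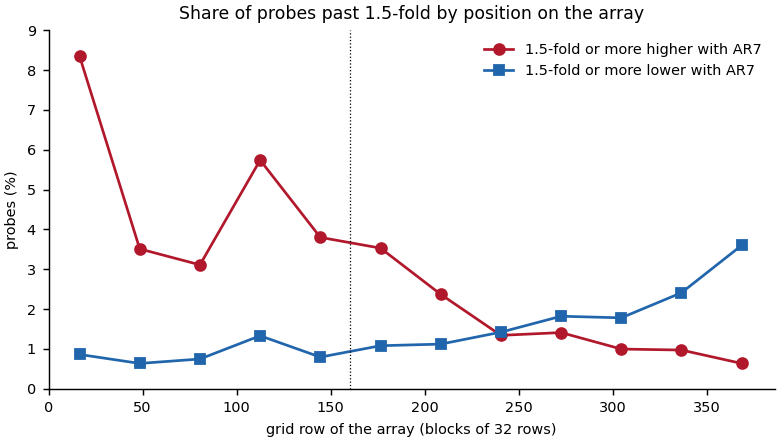
Share of kept probes at least 1.5-fold higher (red circles) or lower (blue squares) with AR7, in percent, in each block of 32 grid rows of the array (x axis). The dotted line marks row 160. The share of higher probes ran from 8.35% in the first block to 0.635% in the last, and that of lower probes from 0.86% to 3.6%.

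The firmest calls within 1 array came from genes measured by 2 or more different probes. Of 5039 such genes, 29 (0.576%) had every kept probe at least 1.5-fold higher and 12 (0.238%) every kept probe at least 1.5-fold lower. Among the higher genes 22 had a symbol, and 8 of these belonged to the detoxification lists, which held 26 genes measured by 2 probes: Gsta3, Gstm1, Gstp1, Mgst1, Hmox1, Ephx1, Esd and Aldh3a1. Among the 12 lower genes were Cbr2, a carbonyl reductase, and Nsdhl, a sterol synthesis enzyme. Of the 230 kept probes with 10 spots, 3 (1.3%) were at least 1.5-fold higher and 2 (0.87%) at least 1.5-fold lower. The higher ones were Gsta4, the gelatinase Mmp9 and Lypd6b, and the lower ones were Wfdc21 and the smooth muscle actin Acta2.

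**Figure D3:**
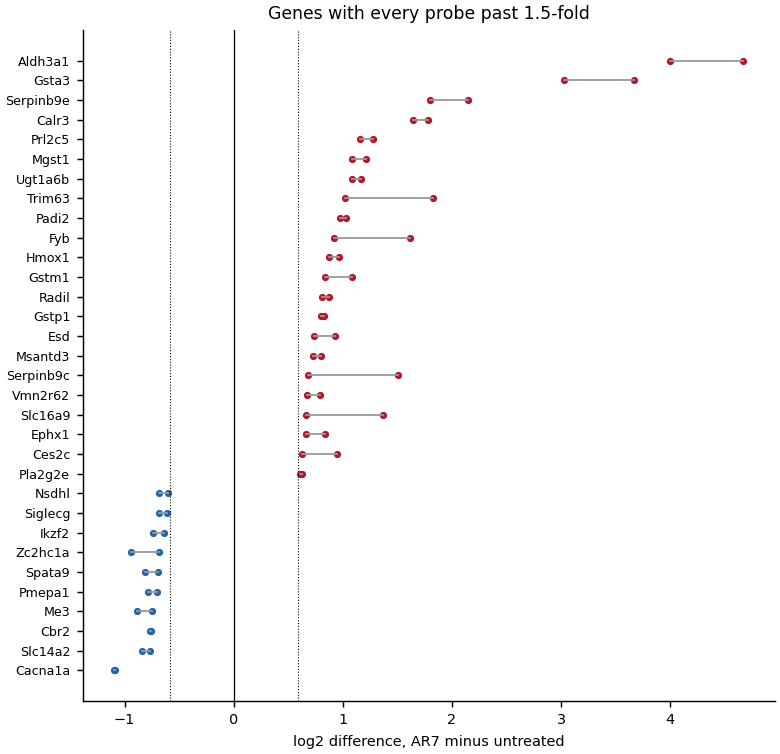
Log2 difference, AR7 minus untreated (x axis), of each kept probe of the 22 higher (red) and 10 lower (blue) genes with a symbol for which every kept probe was past 1.5-fold (dotted lines). Each point is a probe and the gray line joins the probes of a gene. Aldh3a1 lies farthest to the right, at 4.0 and 4.67, and Cacna1a farthest to the left, at -1.09 and -1.10.

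Alpha-class glutathione transferases join glutathione to electrophilic compounds and to products of lipid peroxidation. All 5 that were measured were past 2-fold, against 1.33% of all genes. Gm10639 read 7.49 on the untreated array and 15.35 on the AR7 array, a difference of 7.86. Gm3776 read 7.58 and 15.22, a difference of 7.64. Gsta2 read 6.61 and 14.11, a difference of 7.50. Each of the 3 rested on a single kept probe. The untreated reading of Gsta2 lay below 6.82, the 1st percentile of detected signal on the AR7 array, so at an unchanged level it could hardly have been kept. Gsta4, which prefers the lipid peroxidation product 4-hydroxynonenal, was measured by 10 spots and read 9.84 ± 0.10 (SD over 10 spots) on the untreated array and 14.53 ± 0.13 on the AR7 array, a 25.8-fold difference. Gsta3 was measured by a pair of probes, which read 7.06 and 7.08 on the untreated array and 10.73 and 10.11 on the AR7 array. The CA39 array read 7.75 for Gm10639, 7.73 for Gm3776, 6.61 for Gsta2, 10.99 for Gsta4 and 7.0 for Gsta3, and the CA77 array read 14.60, 14.43, 13.45, 13.99 and 10.03 for the same genes. The Gsta2 probe was not well above background with CA39. Of the others CA39 was within 1.5-fold of the untreated level for all but Gsta4, and CA77 lay below AR7 and above the untreated level for all 5. These comparisons share the untreated array.

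RefSeq (GRCm38.p6) places Gsta4, Gsta1, Gm3776 and Gm10639 next to each other on chromosome 9, with the egg-cell genes Omt2a and Omt2b between Gm10639 and Gsta2, while Gsta3 is on chromosome 1. Gm10639, Gm3776 and Gsta2 are close paralogs whose transcripts may share probes, so their 3 values are not 3 independent measurements. A region on chromosome 9 with no symbol, singled out after its values were seen, is named by the array design as a noncoding RNA on the plus strand of chr9:78107225-78118850 (mm9). It had a difference of 7.62 and 7.77 by its 2 probes, in grid rows 363 and 50. Its levels were 7.30 and 7.66 on the untreated array, 14.92 and 15.43 on the AR7 array, 7.31 and 7.83 on the CA39 array and 14.13 and 14.72 on the CA77 array. A further such region, chr9:78104935-78116974, overlaps it on the same strand and read 7.03 on the untreated and 14.16 on the AR7 array by its 1 probe. AR7 and CA77 were high and the untreated and CA39 arrays low for both regions. These levels were near those of Gm3776 and Gm10639, and whether the probes read transcripts of the same genes was not tested. A probe for the opposite strand of the first region, in grid row 52, read 7.55 with AR7 and 6.55 with CA77. It was not detected on the untreated or CA39 array. Dppa5a, a pluripotency-associated gene that follows Gsta2 in the annotation, read 8.62 on the untreated, 11.26 on the AR7, 9.33 on the CA39 and 10.12 on the CA77 array, a difference of 2.64. On the other side of Gsta4, Cilk1 had differences of 0.50 and 0.30 by its 2 probes. Gclc, the catalytic subunit of glutamate-cysteine ligase, is the fifth coding gene before Gsta4 and had a difference of 0.58.

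Of 19 other glutathione transferases measured, 9 were at least 1.5-fold higher and 0 lower, against 2.94% and 1.43% of all genes, with a median of 0.56 against -0.01 for all genes. The microsomal enzyme Mgst1 read 13.64 and 13.49 by its 2 probes on the untreated array and 14.73 and 14.70 on the AR7 array, so that both probes were past 2-fold. The cytosolic mu-class enzyme Gstm1 was higher by 0.84 and 1.08, and the pi-class enzyme Gstp1 by 0.83 and 0.80. Gstk1 (0.97), Mgst2 (0.85), Gstm3 (0.70), Gstm4 (0.70) and Gsto1 (0.66) were past 1.5-fold by 1 probe each. The highest value of the list, 2.66 for Gstt2, came from a spot in a cluster of deviating spots. Mgst3, which the list also held, was lower by both probes, at -0.56 and -0.52. Among the 12 members printed in rows over 160, 6 were at least 1.5-fold higher and 0 lower. Gstt4, a theta-class gene outside the list, read 10.01 on the untreated, 11.85 on the AR7, 7.15 on the CA39 and 11.35 on the CA77 array.

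**Figure D4:**
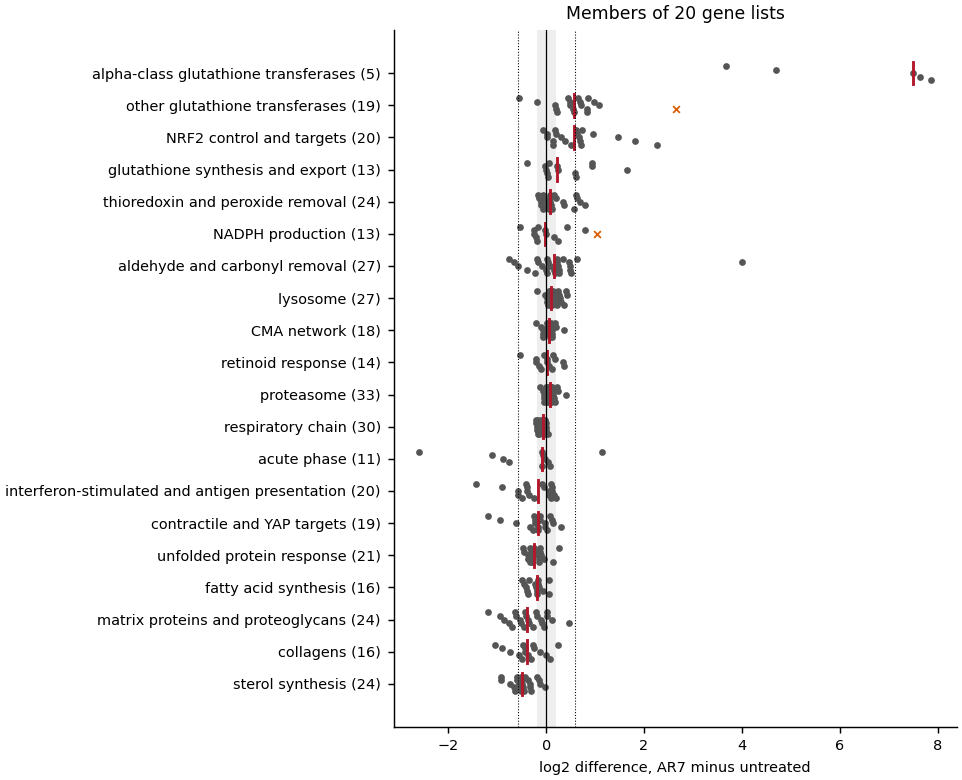
Log2 difference, AR7 minus untreated (x axis), of every measured member of 20 gene lists, 1 point a gene, with the number of members measured in parentheses. Red bars are medians, the gray band is the tolerance of 0.17, dotted lines mark 1.5-fold and orange crosses are spots in clusters. The glutathione transferase and NRF2 lists lie to the right of 0, and the sterol, collagen and matrix lists to the left.

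Of 20 measured genes of NRF2 control and NRF2 targets, 10 were at least 1.5-fold higher and 0 lower, against 2.94% and 1.43% of all genes, with a median of 0.56. NRF2 itself (Nfe2l2) differed by 0.20 and its inhibitor Keap1 by 0.01, and the small MAF partner genes Maff, Mafg and Mafk by 0.30, 0.14 and 0.14. Among the targets Nqo1 read 10.94 on the untreated and 13.19 on the AR7 array. Ptgr1, which reduces reactive alkenals, read 6.10 and 7.92. Its untreated reading lay below 6.82, the 1st percentile of detected signal with AR7, so at an unchanged level it could hardly have been kept. Blvrb, a biliverdin reductase, read 13.99 and 15.47. Hmox1, the heme oxygenase, was higher by 0.97 and 0.88 in a pair of probes, and the epoxide hydrolase Ephx1 by 0.66 and 0.84. Esd, an esterase that releases formate from S-formylglutathione, was higher by 0.73 and 0.93. The autophagy receptor Sqstm1 (0.71), the sulfiredoxin Srxn1 (0.69), the thioredoxin reductase Txnrd1 (0.63) and the heme transporter Slc48a1 (0.61) were past 1.5-fold by 1 probe each. Hmox1 read highest on the CA39 array, with 14.86 by the brighter probe against 13.65 untreated, 14.61 with AR7 and 14.02 with CA77. In rows over 160, 6 of 11 members were past 1.5-fold higher and 0 lower, where 1.59% of all genes were higher. In rows up to 160, where 4.88% of all genes were higher, 6 of 12 members were.

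Genes that supply glutathione and NADPH differed less. Of 13 genes for glutathione synthesis and export, 4 were past 1.5-fold higher and 0 lower, against 2.94% and 1.43% of all genes, with a median of 0.22. In rows over 160 it was 1 of 6 with a median of 0.10, and in rows up to 160, 3 of 8 with a median of 0.38. The 4 were the cystine transporter Slc7a11 (1.65), the modifier subunit of glutamate-cysteine ligase Gclm (0.94) and the exporters Abcc4 (0.93) and Abcc1 (0.61). For Slc7a11 the CA39 array read highest, at 8.81 against 6.76 untreated, 8.41 with AR7 and 7.31 with CA77. Its untreated reading lay just below 6.82, the 1st percentile of detected signal with AR7. Glutathione reductase (Gsr) was higher by 0.22 and 0.26, and glutathione synthetase (Gss) differed by 0.02. Of 13 NADPH-producing enzymes, G6pdx, the first enzyme of the pentose phosphate pathway, was higher by 0.79 and the next dehydrogenase, Pgd, by 1.05, the latter from a spot in a cluster. Both were printed in rows up to 160, where they were 2 of 5 members, while 0 of 8 in rows over 160 were past 1.5-fold, with a median of -0.09. The median of the whole list was -0.03. Of 24 thioredoxin and peroxide-removing genes 4 were past 1.5-fold higher, against 2.94% of all genes: the peroxidase Gpx2 (0.78), Srxn1, Txnrd1 and the extracellular superoxide dismutase Sod3 (0.61). Peroxiredoxin Prdx1 was higher by 0.37 and 0.40 and catalase (Cat) by 0.56 by both of its probes.

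Among 27 enzymes that remove aldehydes and carbonyls, 2 were past 1.5-fold higher and 2 lower, with a median of 0.16, where 2.94% and 1.43% of all genes were. Aldh3a1, which oxidizes aromatic and medium-chain aldehydes, read 11.96 and 11.33 by its 2 probes on the untreated array and 15.95 and 16 on the AR7 array. The same probes read 11.99 and 11.20 on the CA39 array and 15.54 and 15.74 on the CA77 array. The other higher enzyme was the alcohol dehydrogenase Adh7, with 0.64. The lower ones were Cbr2, with -0.76 and -0.77 by its 2 probes, and Aldh1l1, with -0.65. Aldh3a1 and Nqo1 are also known targets of the aryl hydrocarbon receptor. Of 11 genes of that list on the array 6 were measured, and 3 of these were past 1.5-fold higher and 0 lower, against the same shares. The 3 were Aldh3a1, Nqo1 and Ahr itself, which was higher by 0.80. In rows over 160 it was 1 of 4 with a median of 0.018, and in rows up to 160, 3 of 4. The others lay within 1.5-fold, among them Cyp1b1 (-0.01), which that receptor controls in fibroblasts. A part of the receptor in these values was not tested. Ugt1a6b, a glucuronosyltransferase gene outside the lists and a relative of the list member Ugt1a6a, was higher by 1.17 and 1.08.

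Together the 8 lists of detoxification and antioxidant genes held 121 measured genes, of which 35 were past 1.5-fold higher and 2 lower, against 2.94% and 1.43% of all genes, so that the count of lower members was near the background. Antioxidant response elements were looked for as the letters TGACNNNGC, on both strands, in the RefSeq promoter windows of 250 bases before to 50 bases after a gene start (GRCm38.p6). They occurred in 14% of the 27025 genes with a window. They occurred in 8 of the 27 higher members with a window (29.6%), in 7 of 19 genes of the NRF2 list (36.8%), in 5 of 11 genes of glutathione synthesis and export (45.5%) and in 1 of 5 alpha-class genes. The other detoxification lists held them in 25% of the NADPH production genes, 16.7% of the thioredoxin and peroxide removal genes, 15.8% of the other glutathione transferases, 11.1% of the aryl hydrocarbon receptor list and 4.17% of the aldehyde and carbonyl list. Lists with few or no higher members held them too, in 36.4% of the lysosome list, 36.4% of the TGF-beta and BMP feedback list and 31.8% of the ATF4 targets, so the letters were not particular to the higher genes. A match describes letters and not a working site. The matches before the gene start in 6 higher members are shown, read along the gene's own strand, with the match in capitals and 12 bases on each side. The stretches are chr1:21240452-21240484 (plus strand) for Gsta3, chr6:138140459-138140491 (plus) for Mgst1, chr3:122245411-122245443 (plus) for Gclm, chr14:118676934-118676966 (minus) for Abcc4, chr10:82859102-82859134 (plus) for Txnrd1 and chrX:74428917-74428949 (minus) for G6pdx. In all but Gsta3 and Abcc4 the letters are on the opposite strand and are printed as their reverse complement.
Gsta3: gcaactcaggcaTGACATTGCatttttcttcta
Mgst1: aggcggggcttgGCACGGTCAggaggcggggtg
Gclm: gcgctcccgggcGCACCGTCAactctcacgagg
Abcc4: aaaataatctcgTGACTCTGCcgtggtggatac
Txnrd1: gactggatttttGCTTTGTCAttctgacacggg
G6pdx: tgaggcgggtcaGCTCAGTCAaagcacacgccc
With AR7 these 6 genes were higher by 3.67 (Gsta3), 1.09 (Mgst1), 0.94 (Gclm), 0.93 (Abcc4), 0.63 (Txnrd1) and 0.79 (G6pdx). Alpha-class genes with larger differences than Gsta3 did not hold the letters in this window.

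All 24 measured members of the sterol synthesis list lay below 0 by their brightest probes, 21 of them past the tolerance, and 7 were at least 1.5-fold lower with 0 higher, against 1.43% and 2.94% of all genes. The median was -0.485 against -0.01 for all genes. Insig1, which retains SREBP in the endoplasmic reticulum and is itself an SREBP target, read 10.69 on the untreated and 9.77 on the AR7 array. Mvd, the mevalonate diphosphate decarboxylase, read 13.33 and 12.42. The sterol carrier gene Stard4 was lower by 0.75 and 0.48 in its 2 probes, and Nsdhl by 0.60 and 0.68. The lanosterol synthase Lss (-0.66), the lanosterol demethylase Cyp51 (-0.64) and the HMG-CoA synthase Hmgcs1 (-0.59) were past 1.5-fold by 1 probe each. Srebf2, the gene for SREBP2 itself, differed by -0.13 and 0.06 by its 2 probes. In rows over 160 the median was -0.50 and in rows up to 160 it was -0.47, so the list stood equally low in both parts of the array. The CA39 array lay above the untreated level for these genes, at 11.84 for Insig1 and 14.24 for Mvd, while the CA77 array read 9.95 and 12.52.

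**Figure D5:**
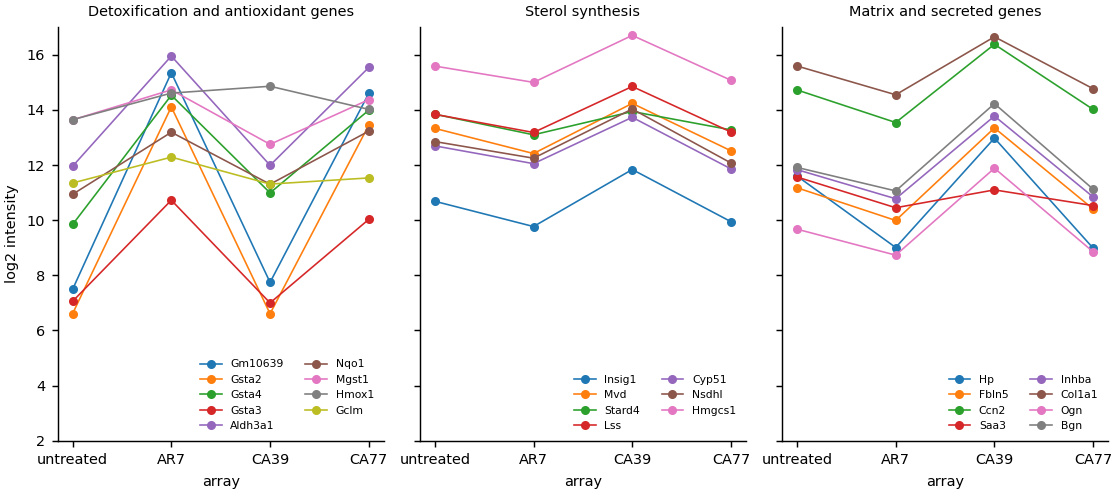
Log2 intensity (y axis) of named genes on each of the 4 arrays (x axis), 1 line a gene, for detoxification and antioxidant genes, sterol synthesis genes, and matrix and secreted genes. Each point is 1 array and the lines only join the values of a gene. Sterol genes lie lower with AR7 and CA77 than on the untreated array and higher with CA39, and the alpha-class genes are high with AR7 and CA77.

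The promoters of sterol genes commonly pair an SREBP site with a CCAAT box, to which NF-Y binds. The letters CCAAT, on either strand, were present in the windows of all 16 sterol list members that had a window, against 41.1% of all genes. They were also in 90.5% of the mitosis list, whose median difference was 0.04, and in 88.9% of the unfolded protein response list, so they were not particular to the sterol genes. The sterol element letters TCACNCCAC were in 1 of these 16, Hmgcs1, and in 1.44% of all genes. The match nearest to the gene start is shown for the 6 members past 1.5-fold lower that had a window, with CCAAT or its reverse complement ATTGG in capitals. The stretches are chr5:28071184-28071212 (plus strand) for Insig1, chr8:122443433-122443461 (minus) for Mvd, chr10:76531531-76531559 (plus) for Lss, chr5:4104710-4104738 (minus) for Cyp51, chrX:72918489-72918517 (plus) for Nsdhl and chr13:119690294-119690322 (plus) for Hmgcs1. The sterol element of Hmgcs1 lies at chr13:119690202-119690234 and is shown last, with TCACNCCAC in capitals.
Insig1: cgccctcctcccATTGGctccggcggcct
Mvd: ccggccagcgggCCAATcatatggcagcg
Lss: ggtgatgctctgATTGGccgagctcgcat
Cyp51: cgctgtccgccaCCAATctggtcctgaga
Nsdhl: aagactagcctcATTGGgcaaaatcatgc
Hmgcs1: tccccgcctctcATTGGctgaaagcggat
Hmgcs1 sterol element: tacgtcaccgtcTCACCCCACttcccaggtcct
With AR7 the differences of these 6 genes were -0.92 (Insig1), -0.91 (Mvd), -0.66 (Lss), -0.64 (Cyp51), -0.60 (Nsdhl) and -0.59 (Hmgcs1). SREBP1 drives fatty acid synthesis. None of its 16 measured genes was past 1.5-fold, where 1.43% of all genes were lower, 14 lay below 0 and the median was -0.19, with -0.40 for the synthase Fasn and -0.49 for the elongase Elovl6.

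Of 16 collagen genes measured 3 were at least 1.5-fold lower and 0 higher, against 1.43% and 2.94% of all genes, 14 lay below 0 and the median was -0.40. Col1a1, the alpha-1 chain of type I collagen, read 15.60 on the untreated and 14.55 on the AR7 array. Col5a2 (-0.91) and Col3a1 (-0.73) followed, and the basement membrane chains Col4a1 (0.09) and Col4a2 (0.24) were the members above 0. Of 24 matrix proteins and proteoglycans 7 were at least 1.5-fold lower and 0 higher, against the same shares, with a median of -0.38. Fbln5, an elastic fiber protein, read 11.18 and 9.99, a difference of -1.19. Ogn (-0.94), Bgn (-0.85) and Lum (-0.62), which are small leucine-rich proteoglycans, and Thbs1 (-0.77), Mgp (-0.70) and Fbn1 (-0.64) were the others. The proteoglycan decorin (Dcn) differed in the other direction, at 17.15 on the untreated and 17.61 on the AR7 array. Of 18 matrix genes printed in rows over 160, 5 were past 1.5-fold lower and 0 higher, where 1.85% of all genes were lower. The CA39 array read higher than the untreated array for Fbln5 (13.35) and Col1a1 (16.65), and lower for Lum (10.39) and Dcn (11.46).

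Genes that respond to TGF-beta, YAP or mechanical load were lower in part. Ccn2, a matricellular growth factor, read 14.73 on the untreated and 13.54 on the AR7 array, and Acta2, measured by 9 unmarked spots, read 9.23 ± 0.09 (SD over 9 spots) and 8.30 ± 0.16. With Amotl2 (-0.62) these were the 3 of 19 contractile and YAP target genes past 1.5-fold, all lower, against 1.43% of all genes, and the median was -0.17. Other genes of that list differed little, such as Ankrd1 (-0.25), Ccn1 (-0.28) and Tagln (0.15). Of 15 TGF-beta and BMP feedback genes 3 were past 1.5-fold lower and 0 higher, with 1 of 10 in rows over 160 and 2 of 4 in rows up to 160, against 1.43% of all genes lower. Among them were the activin subunit Inhba (-1.06) and the BMP antagonist Nog (-0.63). Of 18 matrix proteases and inhibitors 2 were past 1.5-fold higher and 1 lower, against 2.94% and 1.43% of all genes, while 12 lay below 0, 10 of them past the tolerance, and the median was -0.23. Timp3 was lower (-0.65), while Mmp10 was higher by 1.21 and Mmp9 read 8.15 ± 0.14 (SD over 10 spots) on the untreated and 9.50 ± 0.16 on the AR7 array. Mmp9 and Mmp10 were not detected with CA39.

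Some acute-phase and interferon genes were lower. Hp read 11.60 on the untreated, 9.01 on the AR7, 12.98 on the CA39 and 8.98 on the CA77 array, so AR7 and CA77 were low and CA39 high. Of 11 acute-phase genes 4 were past 1.5-fold lower, against 1.43% of all genes: Hp (-2.59), the serum amyloids Saa3 (-1.12) and Saa1 (-0.77), and ceruloplasmin Cp (-0.89). The protease inhibitor Serpina3n was the 1 member past 1.5-fold higher, with 1.14. The complement gene C3 (0.08) and lipocalin Lcn2 (-0.09) lay within the tolerance, and the median of the list was -0.08. Of 20 interferon-stimulated and antigen presentation genes Ifit1 (-1.43) and Ifit3 (-0.90) were past 1.5-fold, both lower (1.43% of all genes) and both in rows up to 160, while the class I gene H2-K1 differed by 0.12. None of 13 chemokines and cytokines was past 1.5-fold, and the highest were Cxcl1 (0.57) and Cxcl5 (0.52). Of 21 genes of the immediate early and ERK feedback list, Ier3 (1.01) and Dusp4 (0.85) were past 1.5-fold higher and Egr2 (-0.64) lower, against 2.94% and 1.43% of all genes.

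All 18 members of the CMA network, the process for which AR7 was made, were measured. By their brightest kept probes 0 were past 1.5-fold, where 2.94% of all genes were higher and 1.43% lower, so that fewer than 1 call would match the background, and the median was 0.05. Gfap differed by -0.11 by its brightest kept probe, in grid row 352, while a probe in row 151 read 7.75 on the AR7 array and was below the detection limit with CA39, with CA77 and without treatment, and a probe in row 324 was not detected on any array. The receptor gene Lamp2 read 15.08 on the untreated and 15.18 on the AR7 array, and the chaperone gene Hspa8 17.87 and 17.94. Rara, the receptor that AR7 binds, read 13.48 and 13.27. A second Lamp2 probe differed by 0.23. The probes for Lamp2 do not set the LAMP2A splice form apart in these files. Of 14 measured retinoid response genes 0 were past 1.5-fold and the median was 0.02. Past the tolerance were 3 members in each direction, close to the 3511 and 4044 of all 21727 genes, and they included Rarg (0.36) and Stra8 (0.34) above 0 and Crabp1 (-0.52) below it. Of 27 lysosomal genes 25 lay above 0 with a median of 0.10, 10 were past the tolerance on the higher side and 1 on the lower, where 3511 and 4044 of all 21727 genes were, and 0 reached 1.5-fold. Higher members included cathepsin Z (Ctsz, 0.43) and the CMA regulator cathepsin A (Ctsa, 0.36). Among 26 macroautophagy genes Sqstm1 alone was past 1.5-fold, and the median was -0.03. The unfolded protein response list, which holds chaperones of the endoplasmic reticulum, had 19 of 21 members below 0, a median of -0.24 and none past 1.5-fold, with -0.45 for Hspa5. No member of the lists for the proteasome (33 measured), cytosolic heat shock proteins (20), DNA replication (26), mitosis (26), p53 targets (17), glycolysis and hypoxia (24), the respiratory chain (30) or cytosolic ribosomal proteins (34) was past 1.5-fold by its brightest probe kept on both arrays. The lactate dehydrogenase gene Ldha differed by -0.08 and -0.34 by its 2 kept probes, while a further probe in grid row 58 read 18.14 on the untreated, 18.20 on the CA39 and 18.13 on the CA77 array and was not well above background with AR7. Their medians ran from -0.07 for the respiratory chain, with 29 of 30 members below 0, to 0.07 for the proteasome.

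Several genes outside the lists were called by 2 probes. Serpinb9e, a granzyme B-type serine protease inhibitor, was higher by 1.80 and 2.14. Its 5 relatives that were measured, Serpinb9, Serpinb9c, Serpinb9d, Serpinb9f and Serpinb9g, were looked at after this value was seen. All 8 probes of the 6 genes, 1 of them in a cluster, were at least 1.5-fold higher, from 0.69 to 2.16, and probes of close paralogs can share transcripts. Serpinb9f, with a single probe in rows over 160, read 12.91 on the untreated, 14.68 on the AR7, 11.78 on the CA39 and 14.15 on the CA77 array. The proliferin genes Prl2c5 (1.15 and 1.28) and Prl2c1 (1.32) were also higher. The CA39 array read lowest for Prl2c5, at 12.52 against 16.25 untreated, 17.40 with AR7 and 16.90 with CA77 by the brighter probe. Calr3, a testis relative of calreticulin, was higher by 1.78 and 1.64, the ubiquitin ligase gene Trim63 by 1.02 and 1.83, and the arginine deiminase Padi2 by 0.97 and 1.03. Both probes of Serpinb9e, of Calr3 and of Trim63 were printed in rows up to 160. There 4.88% of all genes were at least 1.5-fold higher, against 1.59% in rows over 160. Of the lower genes Cacna1a, a pore subunit of P/Q-type calcium channels, read 12.81 and 11.70 by its 2 probes on the untreated array and 11.72 and 10.60 on the AR7 array. The urea transporter Slc14a2 was lower by 0.84 and 0.77, the malic enzyme Me3 by 0.75, and Pmepa1, a TGF-beta-induced inhibitor of SMAD signaling, by 0.71 by the brighter probe.

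In rows over 160, genes with a symbol and 1 kept probe outside the clusters added further values without a second probe. Probes without a symbol are not ranked here, and some read higher, such as A_55_P1995060 (3.62). After Gm10639, Gm3776 and Dppa5a the highest were the synaptic vesicle gene Snap91 (2.35), the zinc transporter Slc39a4 (1.88), Gstt4 (1.84), Ptgr1 (1.82) and the microtubule-binding protein gene Clip3 (1.82). Snap91 (6.37) and Ptgr1 (6.10) read below 6.82 on the untreated array, the 1st percentile of detected signal with AR7. At an unchanged level they could hardly have been kept, so their rank rests on that filter. The lowest after Hp were Gm5901 (-2.18), the integrin-like gene Itgbl1 (-1.80), Rsad1 (-1.52), the protocadherin Pcdh17 (-1.45), the homeobox gene Meox2 (-1.41), the ciliary transport gene Ift81 (-1.34) and Gm11567 (-1.32). Itgbl1 read 11.09 on the untreated, 9.29 on the AR7, 13.61 on the CA39 and 9.80 on the CA77 array. Across the alternative settings Snap91 ran from 1.83 to 3.21, Ptgr1 from 1.30 to 2.51 and Gm11567 from -2.28 to -1.04, so the order among these single probes is not firm. Slc39a4 read 10.00, 11.88, 8.40 and 11.40 on the same arrays, an order opposite to that of Itgbl1.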

How the data were processed

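RNA of 4 NIH-3T3 cultures was labeled with Cy3 and hybridized to 1 slide of Agilent arrays, 1 array a group. Spot values are linear intensity values that the authors deposited as written by Feature Extraction 10.7.3.1, with background and quality marks for 62976 spots an array. The deposited series table equaled the background-subtracted intensity at all 62976 spots of each array, and log2 values made by the authors with the tools their processing notes name, oligo and RMA, were not used here.

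Spot and background medians were corrected by normexp without an offset (limma 3.58.1, R 4.3.3), quantile normalized over 4 arrays and put on the log2 scale. These log2 values were computed here from the deposited intensities. Control spots, and spots marked as outliers (142 on the untreated and 328 on the AR7 array), were left out. On the untreated array 69.7% of probes and on the AR7 array 52.8% were well above background. Precision is limited by 1 array a group, and the tolerance of 0.17 is the median SD of a difference over spots of 10-spot probes with at most 1 marked spot. A cluster is a spot that deviates by at least 1 with 2 or more of its 8 neighbors. Accessions were matched to RefSeq (GRCm38.p6) transcripts, which named 17581 of the 28862 kept probes, and other probes kept the file's name. The brightest kept probe stands for a gene.

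Members, gene lists and thresholds were chosen with earlier results of these data known. Genes were named if they ranked among the 12 highest or lowest with agreeing probes, or were list members past 2-fold or past 1.5-fold by 2 probes. Also named were the 8 highest and 8 lowest genes with a symbol and 1 kept probe in rows over 160, outside clusters. Further ones had 10 spots and passed 1.5-fold, or had bounds past 2-fold by 2 probes. Other list members are named as examples, chosen after their values were seen. Some genes picked by this rule, and some list members, are not reported here. Alternatives changed the background offset, the scaling, the probe filter, clusters, grid rows, marked spots, the probe that stands for a gene and the threshold. The steps were tested on simulated data. Tables were handled with Python 3.11.15 and pandas 2.3.3.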

Additional observations from a re-analysis of the deposited data

How the results depend on the processing

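No paired analysis was possible because each group had 1 array. Replicates could not be left out for the same reason. The sterol, collagen, matrix, NRF2 and other glutathione transferase lists kept their direction in every setting run. Of 468 list medians 459 differed from the reported value by less than the tolerance, and of 761 values of named genes 672 did and 89 did not, and 0 changed sign. The causes of the changes below were not tested, except that a looser threshold or filter admits more genes by construction. The alpha-class median of 7.50 was 6.91 with a background offset of 50, 7.90 with 75th percentile scaling of the processed signal, 7.97 with that signal quantile normalized, 7.92 from the deposited series table and 6.17 among probes detected on all 4 arrays. The aryl hydrocarbon receptor median of 0.42 was 0.018 in rows over 160 and -0.0074 without the detection filter, and the endothelial marker median of 0.62 was -0.071 and -0.11 in the same settings. The CMA network median ran from -0.02 to 0.09 and the retinoid median from -0.04 to 0.02.

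Genes at least 2-fold higher (288) numbered 446 with the quantile-normalized processed signal, 72 in rows over 160, 891 without the detection filter, 126 when detected on all 4 arrays and 638 at 1.5-fold. Genes at least 2-fold lower (52) numbered 83 with 75th percentile scaling, 82 with the processed signal, 376 without the filter and 310 at 1.5-fold. In rows over 160 the higher genes (72) numbered 116 with 75th percentile scaling, 129 with the processed signal, 114 from the series table, 292 without the filter, 37 when detected on all 4 arrays and 221 at 1.5-fold. The lower ones there (43) numbered 25 with the offset, 65 with 75th percentile scaling, 66 with the processed signal, 290 without the filter and 257 at 1.5-fold. Genes called higher by 2 probes (29) numbered 9 in rows over 160. Those called lower (12) numbered 20 with 75th percentile scaling, 19 with the processed signal, 5 in rows over 160 and 26 without the filter. Probes of 10 spots called higher (3) numbered 5 with the processed signal, 1 when detected on all 4 arrays and 5 with marked spots kept, and those called lower (2) numbered 4 with 75th percentile scaling, 4 from the series table and 10 with marked spots kept. With the lowest detected signal as the floor, the 98 probes on the untreated array alone past 2-fold became 434. The share of 2-fold calls that were higher was 84.7%, against 62.6% in rows over 160, 78.9% without clustered spots (195 and 52 genes), 70.3% without the filter, 72.4% when detected on all 4 arrays and 67.3% at 1.5-fold.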

Other observations

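Probes detected on only 1 of the 2 arrays have a bound and no difference. It was taken against the 1st percentile of detected signal on the other array (the floor), or the probe's own value there where that was higher. On the AR7 array alone 489 probes were detected, of which 379 were at least 2-fold above this level, 316 of them in rows up to 160 and 63 in rows over 160. On the untreated array alone 9862 probes were detected, of which 98 were at least 2-fold above it, 58 of them in rows over 160 and 40 in rows up to 160. A second probe of Gm10639, which missed the detection limit in untreated cells, was at least 19.5-fold higher with AR7. Nhsl2 was at least 2.39-fold and 2.65-fold higher by its 2 probes, 1 of which lay in a cluster. On the lower side the largest bounds came from spots in rows up to 160 that were bright on the 3 other arrays. Among probes with a symbol the 4 largest were at least 2561-fold for Ldha (row 58), at least 1052-fold for Mybbp1a (row 57), at least 75.7-fold for Cdk5rap3 (row 74) and at least 61.2-fold for Prelid3b (row 90), each by 1 probe. The kept probes of Ldha differed by -0.08 and -0.34 and that of Prelid3b by -0.01. Among kept genes Rnft2 had the lowest difference, -5.98, with 11.08 on the untreated, 5.09 on the AR7, 11.29 on the CA39 and 10.47 on the CA77 array, from 1 spot in row 64. Its AR7 reading lay below the floor of 6.82 used for the bounds, so the size of this difference is not firm. In rows over 160 the largest bounds on that side were at least 8.14-fold for a probe of the syntaxin gene Stx2 and at least 5.47-fold for the serotonin receptor gene Htr1b. Another Stx2 probe, detected on both arrays, differed by -0.01. All the genes in this paragraph other than Gm10639 and Nhsl2 were named after their values were seen.

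On the AR7 array, 111 genes were at least 2-fold above each of the 3 other arrays and 4 were at least 2-fold below each. Of the 111, 95 lay in rows up to 160, 53 of them in clusters, and 16 in rows over 160 with 0 in clusters. Myof, a membrane repair gene, read 7.22 on the untreated, 10.24 on the AR7, 7.20 on the CA39 and 7.34 on the CA77 array from a spot in grid row 113 outside clusters, and was named after its value was seen. Snap91 read 6.37, 8.72, 4.83 and 6.90 on the same arrays, from grid row 273, and was not well above background on the CA39 array. Other high values came from clusters, such as Calcoco2, with 3.41 by a clustered spot and -0.03 by its other probe.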
